A study of Homo sapiens with 24 samples.

Results

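TNFAIP2, YKT6 and L3MBTL2 were followed across 24 count tables of HGC27 cells, as 3 of the 61578 gene entries in those tables and 3 of the 12822 entries that passed a filter on low counts. The 3 entries were chosen because each differed by more than 16-fold between a TMEM97 knockout line and the control line SGCTRL, so every comparison of these rows that includes a knockout line or SGCTRL is given as a description, without a test. All 3 passed the filter on low counts.

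HGC27 is a human gastric carcinoma line, labelled epithelial, and TMEM97 is a sterol-binding membrane protein, also known as the sigma-2 receptor. Total RNA was sequenced after ribosomal RNA depletion with a kit that keeps the strand of each RNA. There were 8 groups of 3 libraries: the knockout line SG12 in LPDS and in FBS, the knockout line SG21 in LPDS and in FBS, the line SGCTRL in LPDS and in FBS, and parental cells in LPDS and in FBS. LPDS (lipoprotein-deficient serum) and FBS (fetal bovine serum) were supplied in high glucose DMEM, and cells grew in either medium for 3 days. SG12 and SG21 are labelled TMEM97 knockout, SGCTRL and parental cells carry wild-type TMEM97, and the labels do not say whether a line is 1 clone or a pool. The series text describes the 3 libraries of a group as independent biological samples, and how their cultures were separated is not said.

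TNFAIP2 is a TNF-inducible protein related to the exocyst subunit Sec6 that promotes membrane protrusions and tunnelling nanotubes. YKT6 is a lipid-modified SNARE, one of the proteins that drive membrane fusion, and acts in transport between the endoplasmic reticulum, Golgi and endosomes and in autophagosome fusion. L3MBTL2 is a chromatin protein with MBT domains that belongs to PRC1.6, a Polycomb complex that places ubiquitin on histone H2A and silences genes together with the DNA-binding factors MGA, MAX and E2F6. They share no complex or pathway by their known roles.

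Most rows of these tables do not hold the messenger RNA of the gene they are named for. Of the reads aligned to 1 place in the genome, between 94.3% and 94.6% fell on no gene, and the counted reads lay mostly on the strand opposite to the named gene. In GENCODE release 29, TNFAIP2 lies on the plus strand of chromosome 14 at 103123442 to 103137439 (12 exons after merging, 5029 exonic bases) and has no gene on the other strand. RefSeq starts it earlier, at 103121469, over LINC00677 on the minus strand, whose own row was nearly empty in every group. YKT6 lies on the plus strand of chromosome 7 at 44200968 to 44214294 (8 exons, 3707 exonic bases), again with no gene on the other strand. L3MBTL2 lies on the plus strand of chromosome 22 at 41205205 to 41231271 (17 exons, 6451 exonic bases), and 2 genes lie opposite to it. L3MBTL2-AS1 (41209122 to 41217627, an antisense RNA) shares 937 exonic bases with it and CHADL (41229510 to 41240934, protein coding) shares 117. Levels are given as CPM, counts scaled to the reads counted to genes in each library. Where a coding gene has nothing annotated opposite to it, as TNFAIP2 and YKT6 do, its row was usually near empty: 90% of 9464 such rows averaged under 5.74 CPM. The source of the reads in the TNFAIP2, YKT6 and L3MBTL2 rows was not determined, and the word row is used for them below.

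As background, and with the source of the reads in the 3 rows not determined, the promoter sequences of the 3 genes are shown. They are RefSeq sequences of GRCh38.p14 on the plus strand, 250 bases before to 50 bases after an annotated start, at chr14:103123211-103123510 for TNFAIP2, chr7:44200728-44201027 for YKT6 and chr22:41205062-41205361 for L3MBTL2. TNFAIP2 has several annotated starts, and its window lies on a later one, near the GENCODE start, not on the earliest RefSeq start given above. Capitals mark matches on either strand to the GC box (GGGCGG), the ETS core (CCGGAA) and the CCAAT box (CCAAT), motifs picked after the sequences had been seen, with overlapping matches counted separately.
TNFAIP2: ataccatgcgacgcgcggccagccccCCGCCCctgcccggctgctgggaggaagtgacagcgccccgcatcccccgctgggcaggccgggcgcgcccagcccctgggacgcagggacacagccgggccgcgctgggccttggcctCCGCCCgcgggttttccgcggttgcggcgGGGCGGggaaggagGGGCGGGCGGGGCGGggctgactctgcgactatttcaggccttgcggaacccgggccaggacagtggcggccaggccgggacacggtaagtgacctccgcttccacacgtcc
YKT6: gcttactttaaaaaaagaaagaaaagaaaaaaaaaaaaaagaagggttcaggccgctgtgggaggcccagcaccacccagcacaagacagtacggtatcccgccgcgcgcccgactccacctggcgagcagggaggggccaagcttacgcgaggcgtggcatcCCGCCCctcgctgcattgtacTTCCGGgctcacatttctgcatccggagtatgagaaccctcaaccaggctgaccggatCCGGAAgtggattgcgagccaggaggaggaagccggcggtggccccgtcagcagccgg
L3MBTL2: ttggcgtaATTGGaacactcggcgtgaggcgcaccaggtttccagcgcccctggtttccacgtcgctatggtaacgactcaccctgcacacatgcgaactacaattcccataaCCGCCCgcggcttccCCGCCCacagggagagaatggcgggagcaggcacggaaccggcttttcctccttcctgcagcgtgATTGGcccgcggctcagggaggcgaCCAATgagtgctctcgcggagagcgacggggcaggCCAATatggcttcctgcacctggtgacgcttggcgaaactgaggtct
The TNFAIP2 window held 6 GC boxes, no ETS core and no CCAAT box, with 35 CpG pairs, a number that 14.1% of all 35116 promoters in the table reach, and 75.7% of its bases were G or C. The YKT6 window held 1 GC box and 2 ETS cores, with 22 CpG pairs (reached by 37.7% of promoters) and 59.7% G or C. The L3MBTL2 window held 2 GC boxes and 4 CCAAT boxes, with 26 CpG pairs (reached by 30.1%) and 62.0% G or C. Among all promoters of the same length 45.0% held a GC box, 17.2% an ETS core and 34.6% a CCAAT box, and the median number of CpG pairs was 14. The windows thus differ in which of these common motifs they carry. Neither methylation nor factor binding was measured.

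The libraries held 2399212 to 5543678 reads counted to genes, out of 44077624 to 101673235 reads aligned to 1 place. Libraries fell into 2 sets by the share of gene reads that fitted more than 1 gene. It was 2.10% to 2.24% in 8 libraries, namely the 6 of SGCTRL with replicates 2 and 3 of SG21 in LPDS. It was 2.58% to 3.15% in the remaining 16. Reads from TMEM97 itself fall in the row of IFT20, the gene opposite to it, which averaged 190 ± 16.2 CPM in SG12 in LPDS, 126 ± 9.45 in SG21 in LPDS and 160 ± 6.13 in SGCTRL in LPDS, and 51.6 ± 4.44 CPM in SG12 in FBS, 75.4 ± 1.85 in SG21 in FBS and 129 ± 10.8 in SGCTRL in FBS (SD, n = 3 each). This row was lower than in SGCTRL in FBS (log2 fold change -1.30 in SG12 and -0.78 in SG21, edgeR adjusted p = 5.68e-10 and 1.89e-05). The SG12 call in FBS was kept in 15 of 15 alternative fits and the SG21 call in 14 of 15. The IFT20 row was not lower in SG12 in LPDS (0.26, edgeR adjusted p = 0.16). In SG21 in LPDS its log2 fold change was -0.39 (edgeR adjusted p = 0.0281), a call lost without SGCTRL LPDS replicate 1 or 2, without SG21 LPDS replicate 1 or 2, with a term for the 2 sets of libraries, and with no filter on low counts. RNA levels thus do not check the SG12 label in LPDS and check the SG21 label there only weakly. For 3 of the 29 cell type markers (VIM, ZEB1 and ZEB2, mesenchymal) a row held reads of the marker. None of the epithelial markers KRT8, KRT18, KRT19, CDH1 and EPCAM could be read, so the epithelial label was not checked.

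The TNFAIP2 row was nearly empty in SG12, low in SG21, higher in parental cells and highest in SGCTRL. In SG12 it held 1, 2 and 0 reads in the 3 libraries in LPDS and 0, 4 and 1 in FBS. In SG21 it held 1, 7 and 7 reads in LPDS and 4, 11 and 19 in FBS. In SGCTRL there were 159, 177 and 268 reads in LPDS and 133, 113 and 178 in FBS, and in parental cells 36, 55 and 45 in LPDS and 48, 48 and 23 in FBS. Every knockout library lay below every library of SGCTRL and of parental cells, also in CPM, where the highest knockout value was 5.20 CPM (SG21 in FBS replicate 3) and the lowest parental value 9.59 CPM (FBS replicate 3).

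Ordered by mean, the TNFAIP2 row fell into 3 steps. The lowest was 0.321 ± 0.328 CPM in SG12 in LPDS, 0.553 ± 0.647 in SG12 in FBS, 1.69 ± 1.21 in SG21 in LPDS and 3.10 ± 1.95 in SG21 in FBS. The middle one was 12.3 ± 2.41 in parental cells in FBS and 13.4 ± 1.00 in parental cells in LPDS, and the highest 43.3 ± 6.33 in SGCTRL in FBS and 50.8 ± 2.11 in SGCTRL in LPDS (SD, n = 3 each). Neighbours within a step overlapped and the steps did not. In bulk RNA, fewer cells with the RNA and less RNA per cell cannot be told apart.

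**Figure D1:**
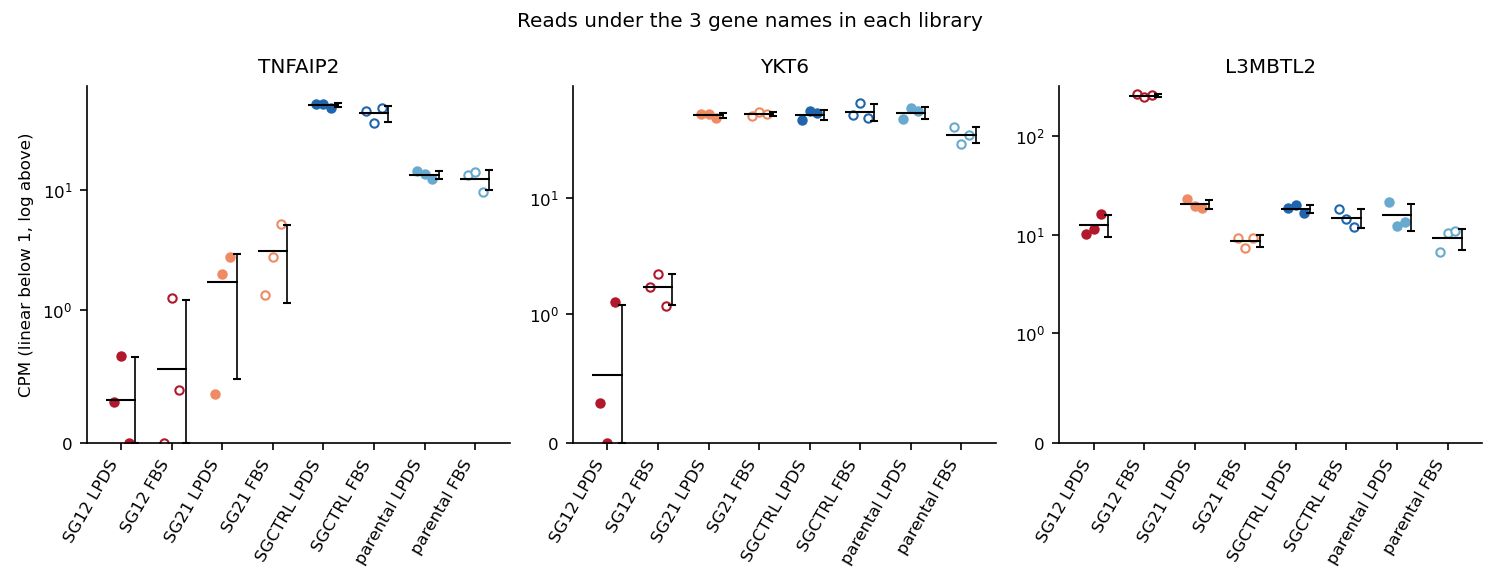
CPM (vertical axis, linear below 1 and logarithmic above) of the TNFAIP2, YKT6 and L3MBTL2 rows in each library of the 8 groups, with LPDS as filled and FBS as open circles, a line at the group mean and a bar for the SD (n = 3, lower end held at 0). TNFAIP2 is low in both knockout lines, YKT6 only in SG12, and L3MBTL2 stands out in SG12 in FBS at 256 CPM.

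Against SGCTRL the log2 fold change of the TNFAIP2 row was -7.15 for SG12 in LPDS and -6.12 in FBS, and -4.92 for SG21 in LPDS and -3.76 in FBS. On the summed reads, 3 in SG12 against 604 in SGCTRL in LPDS, SGCTRL was 158-fold higher, with a 95% exact interval of 53.9 to 769. Such an interval covers counting error only, not the spread between libraries or the choice of the row on this comparison. In FBS, 5 reads in SG12 stood against 424 in SGCTRL (75.3-fold higher in SGCTRL, 32 to 233). For SG21 the sums were 15 against 604 reads in LPDS (29.6-fold, 17.8 to 53.2) and 34 against 424 in FBS (13.6-fold, 9.58 to 19.9). With so few reads single libraries moved the size: without SG12 replicate 2 the log2 fold change was -8.01 in LPDS and -7.54 in FBS. With a term for the split of the libraries by reads on more than 1 gene, it was -4.66 in LPDS and -3.64 in FBS for SG12, and -1.28 in FBS for SG21.

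SGCTRL itself stood above parental cells in this row. Against parental cells the log2 fold change was -5.21 for SG12 in LPDS and -4.31 in FBS, and -2.98 for SG21 in LPDS and -1.95 in FBS, so the direction is the same and the size smaller with that control. The share of all tested entries past an edgeR adjusted p of 0.05 was 10.9% for SG12 against SGCTRL in LPDS, 25.2% for SG12 in FBS, 10.7% for SG21 in LPDS and 14.1% for SG21 in FBS. Against parental cells the shares were 9.68% and 26.5% for SG12 and 11.3% and 24.1% for SG21 (LPDS first). These shares are background, since the rows were chosen on these comparisons.

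The YKT6 row was nearly empty in 1 of the 2 knockout lines. SG12 held 1, 0 and 4 reads in LPDS and 5, 7 and 3 in FBS. SG21 held 145, 187 and 124 reads in LPDS and 153, 217 and 194 in FBS, against 143, 192 and 296 in SGCTRL in LPDS and 152, 205 and 178 in SGCTRL in FBS. Parental cells had 119, 243 and 203 reads in LPDS and 146, 100 and 84 in FBS. Every SG12 library lay below every library of the other 3 lines, and the SG21 and SGCTRL libraries overlapped in both media.

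The YKT6 row averaged 0.528 ± 0.667 CPM in SG12 in LPDS and 1.70 ± 0.514 in SG12 in FBS, both below parental cells in FBS at 35.0 ± 5.53 (SD, n = 3 each). The other 5 groups overlapped in turn, from 51.5 CPM in SG21 in LPDS to 55.3 CPM in SGCTRL in FBS. Against SGCTRL the log2 fold change in SG12 was -6.51 in LPDS and -4.94 in FBS, on 5 against 631 and 15 against 535 reads, which put SGCTRL 99.2-fold (42.3 to 306) and 31.7-fold (19.0 to 57.0) higher. Without SG12 LPDS replicate 3 the value in LPDS was -8.04. In SG21 it was -0.06 in LPDS and -0.06 in FBS, and the interval of the ratio of summed reads, SG21 over SGCTRL, was 0.869 to 1.11 in LPDS and 0.858 to 1.09 in FBS.

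The L3MBTL2 row stood out in a single group. SG12 held 33, 35 and 51 reads in LPDS but 778, 775 and 656 in FBS. SG21 held 62, 69 and 48 reads in LPDS and 28, 29 and 34 in FBS. SGCTRL held 57, 68 and 91 reads in LPDS and 54, 45 and 44 in FBS, and parental cells held 53, 50 and 49 in LPDS and 24, 35 and 26 in FBS. The 3 SG12 libraries in FBS, at 245 to 264 CPM, lay above all 21 others, at 6.65 to 22.8 CPM.

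In the order of means the L3MBTL2 row ran through SG21 in FBS (8.65 ± 1.15 CPM), parental cells in FBS (9.26 ± 2.27), SG12 in LPDS (12.6 ± 3.23), SGCTRL in FBS (14.9 ± 3.20), parental cells in LPDS (15.7 ± 4.85), SGCTRL in LPDS (18.3 ± 1.82) and SG21 in LPDS (20.3 ± 2.14) to SG12 in FBS (256 ± 9.92; SD, n = 3 each). Neighbours in this order overlapped, except for the last step. The log2 fold change of SG12 against SGCTRL was -0.52 in LPDS (119 against 216 reads) and 4.13 in FBS (2209 against 143 reads, 17.4-fold, 14.7 to 20.8), and that of SG21 was 0.11 in LPDS and -0.78 in FBS. Within SG12 the difference of LPDS against FBS was -4.34, on 119 against 2209 reads, while in SG21 it was 1.20, on 179 against 91 reads. In those comparisons 22.5% and 3.76% of all tested entries passed an edgeR adjusted p of 0.05.

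The rows of the 2 genes opposite to L3MBTL2 collect mostly reads from the strand of L3MBTL2. They share only 937 (L3MBTL2-AS1) and 117 (CHADL) exonic bases with it, so they do not read that strand over all its exons. The L3MBTL2-AS1 row held 663, 692 and 629 reads in SG12 in LPDS and 526, 584 and 441 in SG12 in FBS, against 559, 635 and 1109 in SGCTRL in LPDS and 501, 602 and 636 in SGCTRL in FBS. The log2 fold change of SG12 against SGCTRL was 0.16 ± 0.11 in LPDS (SE, edgeR adjusted p = 0.387) and 0.03 ± 0.11 in FBS (adjusted p = 0.893), where the libraries overlapped. For SG21 it was 0.08 in LPDS (edgeR adjusted p = 0.748) and 0.34 in FBS (adjusted p = 0.0292), and the call in FBS was lost without SGCTRL replicate 1 (0.29, adjusted p = 0.132) or 3 (0.31, adjusted p = 0.111) or SG21 replicate 1 (0.23, adjusted p = 0.224). CHADL, a leucine-rich matrix protein, showed log2 fold changes of -0.18 and -0.14 in SG12 and 0.30 and 0.20 in SG21 (LPDS first, edgeR adjusted p between 0.293 and 0.601). The large difference in the L3MBTL2 row thus had no counterpart of similar size in the 2 rows on the other strand.

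**Figure D2:**
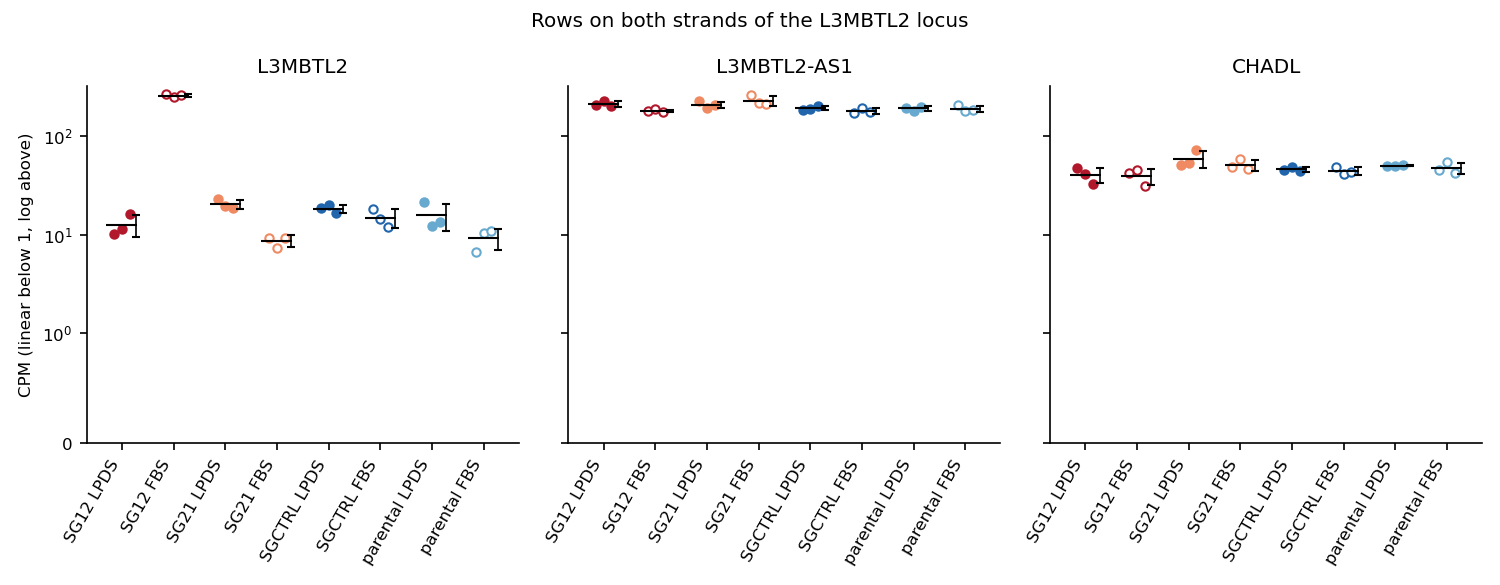
CPM (linear below 1, logarithmic above) of the L3MBTL2 row and of the 2 rows on the other strand, L3MBTL2-AS1 and CHADL, in each library of the 8 groups, drawn as circles with group mean and SD (n = 3). The L3MBTL2 row in SG12 in FBS, at 256 CPM, lies far above the other groups, while the L3MBTL2-AS1 row stays between group means of 179 and 227 CPM.

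Per kilobase of exon, the L3MBTL2 row in SG12 in FBS reached 39.7 ± 1.54 CPM, against 1.34 to 3.15 in the other 7 groups, and the L3MBTL2-AS1 row had 71.5 to 90.7 CPM per kilobase in all 8 (SD, n = 3). The CHADL row had 15.2 to 22.5. Over the full exonic length of each gene, the L3MBTL2 row in SG12 in FBS thus lay below the L3MBTL2-AS1 row and above the CHADL row. Of the 2500 and 2599 exonic bases of L3MBTL2-AS1 and CHADL, only 937 and 117 are shared with L3MBTL2 exons. Levels over the shared bases were not computed, so this order does not compare the 2 strands at the same bases.

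SGCTRL and parental cells both carry wild-type TMEM97. The SGCTRL libraries took part in the choice, and picking a row that is low in a knockout line favours high SGCTRL values, so their comparison is described without a test. The TNFAIP2 row in SGCTRL stood above parental cells by 1.94 ± 0.29 in LPDS and 1.81 ± 0.30 in FBS (log2 fold change, SE), with all SGCTRL libraries above all parental ones in both media. The YKT6 row differed by -0.04 in LPDS, where the libraries overlapped, and by 0.67 ± 0.19 in FBS. The L3MBTL2 row differed by 0.27 in LPDS, where the libraries overlapped, and by 0.72 ± 0.24 in FBS. In FBS all SGCTRL libraries lay above all parental ones in both of these rows. The share of all tested entries whose libraries lay apart is not given, so this is a description only. Of all tested entries 0.842% passed an edgeR adjusted p of 0.05 in LPDS and 18.2% in FBS.

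All SGCTRL libraries are in the set with few reads on more than 1 gene and all parental libraries in the other, so line and this split can be told apart only through SG21 in LPDS, where the TNFAIP2 row held 1 read in the library of the parental kind and 7 and 7 in the other 2. With a term for the split, the TNFAIP2 difference turned to -0.54 in LPDS and -0.67 in FBS.

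The medium was tested in parental cells, whose libraries took no part in the choice. By edgeR 1 of the 3 rows passed, where 4.67% of entries did: the YKT6 row was 0.65 ± 0.19 higher in LPDS than in FBS (log2, SE, edgeR adjusted p = 0.0366), with all 3 LPDS libraries above the FBS libraries. That call was lost without parental FBS replicate 2 or 3 or any 1 of the LPDS libraries (log2 0.52 to 0.79 over the 6 fits). The L3MBTL2 row was 0.75 ± 0.24 higher (edgeR adjusted p = 0.0622) and the TNFAIP2 row 0.11 ± 0.32 (adjusted p = 0.887).

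In SGCTRL the log2 differences of LPDS against FBS were 0.23 for TNFAIP2, -0.07 for YKT6 and 0.31 for L3MBTL2, with overlapping libraries in all 3, and 2.25% of all tested entries passed. The response in SGCTRL minus that in parental cells was -0.71 ± 0.26 for YKT6, -0.44 for L3MBTL2 and 0.13 for TNFAIP2 (log2, SE), given without a test; 0.0546% of all tested entries passed.

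**Figure D3:**
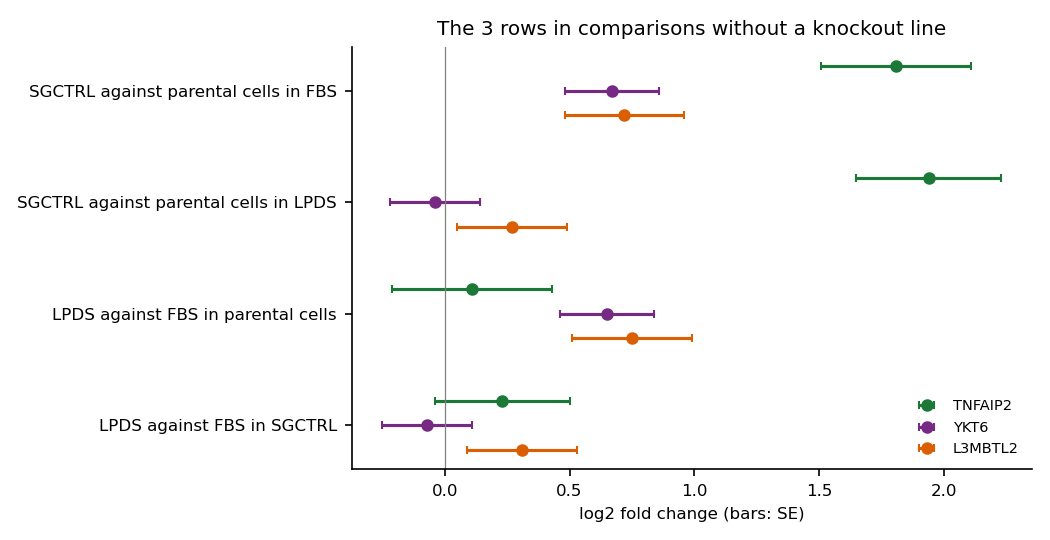
Log2 fold changes of the 3 rows in the 4 comparisons between groups with wild-type TMEM97 (horizontal axis), with bars for the SE. TNFAIP2 lies near 1.8 to 1.9 for SGCTRL against parental cells in both media, and YKT6 and L3MBTL2 lie at 0.65 to 0.75 in the 2 comparisons that include parental cells in FBS.

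The rows of neighbouring genes were read next by name, since position played no part in the choice. As above, such a row need not hold the messenger RNA of the gene it is named for. The nearest tested protein-coding entry before TNFAIP2, CDC42BPB, a kinase that acts downstream of CDC42 on the actin skeleton, also had a lower row in both knockout lines. Its row averaged 1.49 ± 0.513 CPM in SG12 in LPDS, 4.01 ± 0.958 in SG21 in LPDS and 11.5 ± 2.09 in SGCTRL in LPDS, and 5.30 ± 0.718 in SG12 in FBS, 2.26 ± 1.14 in SG21 in FBS and 11.6 ± 0.664 in SGCTRL in FBS (SD, n = 3 each). Against SGCTRL its log2 fold change was -2.92 in SG12 in LPDS, -1.10 in SG12 in FBS, -1.55 in SG21 in LPDS and -2.31 in SG21 in FBS (edgeR adjusted p = 3.48e-07, 0.00575, 0.000542 and 3.21e-06). Unlike the TNFAIP2 row it was also lower in SGCTRL than in parental cells, with log2 fold changes of -1.07 in LPDS and -1.20 in FBS (edgeR adjusted p = 0.0333 and 0.00132), and the call in LPDS was lost without any 1 of the 6 libraries. With the split term the 4 knockout values ran from -2.34 to -0.52 and 3 of the 4 calls were lost. EIF5, a translation initiation factor and the nearest on the other side, did not pass in any of the 4 (edgeR).

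Within 500 kb of the 3 genes there were 11, 18 and 19 tested entries around TNFAIP2, YKT6 and L3MBTL2. Of all tested entries, 10.9% passed in SG12 against SGCTRL in LPDS and 25.2% in FBS. Around TNFAIP2, 1 was higher and 1 lower in SG12 against SGCTRL in LPDS, and 0 higher and 2 lower in FBS, with medians of -0.24 and 0.09 on the log2 scale, against -0.01 and -0.03 over all tested entries. Around YKT6 there were 1 higher and 2 lower in LPDS, and 2 higher and 5 lower in FBS, with medians of 0.14 and -0.43. Around L3MBTL2 there was 1 higher in LPDS and 1 higher and 1 lower in FBS, with medians of -0.03 and -0.04. In SG12 in FBS none of these neighbours differed by as much as the row it lies near. The 3 rows were chosen for changes of over 16-fold, so this order was largely set by the choice. In LPDS the L3MBTL2 row lay within the range of its neighbours, -2.11 to 1.41. In FBS the lowest and highest values of neighbours were -1.55 and 1.94 around TNFAIP2, -1.23 and 1.25 around YKT6, and -3.02 and 1.35 around L3MBTL2. CAMK2B, which ends towards YKT6 from the other strand, differed by -0.36 in LPDS and 0.21 in FBS (log2, edgeR adjusted p = 0.0251 and 0.16), the first call lost without SG12 LPDS replicate 1, 2 or 3 or SGCTRL LPDS replicate 2 or 3.

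**Figure D4:**
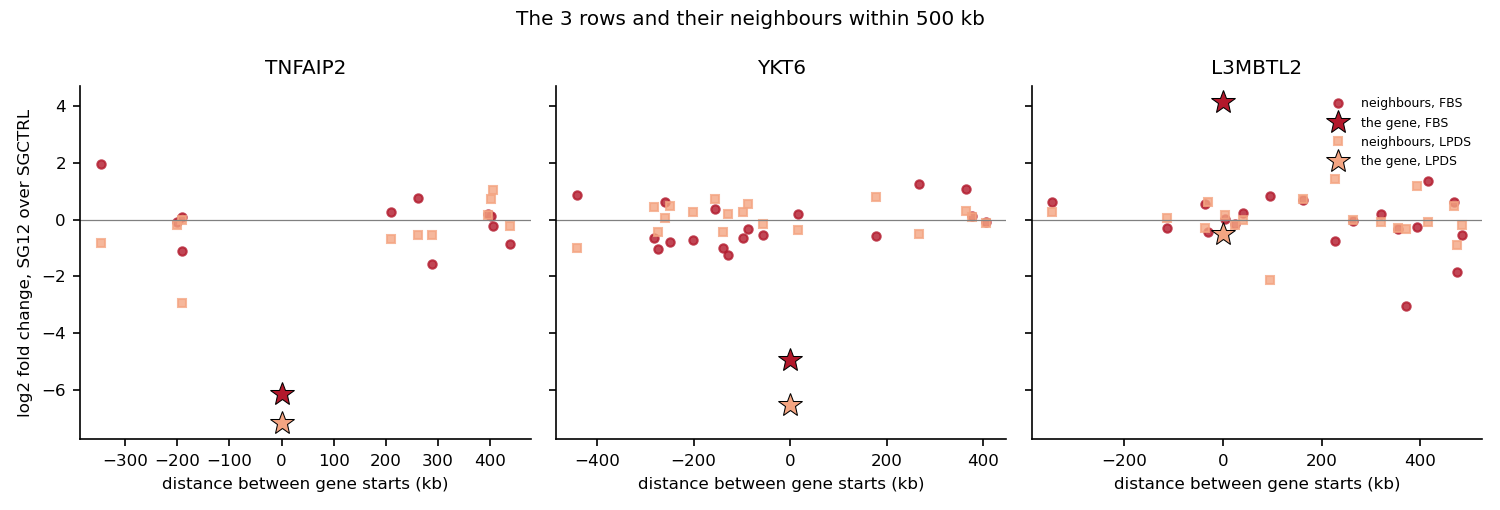
Log2 fold change of SG12 over SGCTRL for TNFAIP2, YKT6 and L3MBTL2 (stars) and for every tested entry within 500 kb of each (circles in FBS, squares in LPDS), by the distance in kb between gene starts. The TNFAIP2 and YKT6 rows lie at -7.15 to -4.94, below all their neighbours, and L3MBTL2 lies at 4.13 in FBS.

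Across the 8 group means of log2(CPM + 0.5), the entries with the most similar pattern were picked from 9504 by Pearson r. These are descriptions over 8 points that share their libraries. For TNFAIP2 they included ICAM4-AS1 (r = 0.974) and MTRFR (0.973), and the MTRFR row, which holds reads of MPHOSPH9, had 32.5 and 34.1 CPM in SG12, 41.3 and 38.6 in SG21 and 56.5 and 56.4 in SGCTRL (LPDS first). For YKT6 they were ENSG00000232358 (r = 0.98, holding KCNG1 reads), ENSG00000286437 (0.977) and RAC1P9 (0.972). RAC1P9, a processed pseudogene on chromosome 7 like YKT6, had 0 CPM in all 6 SG12 libraries, 6.38 and 7.99 CPM on average in SG21 and 13.5 and 12.2 in SGCTRL (LPDS first). For L3MBTL2 they were GDF11 (r = 0.99, holding SARNP reads), UTS2 (0.978, holding PER3 reads) and CFLAR-AS1 (0.976, holding CFLAR reads). The UTS2 row averaged 383 ± 21 CPM in SG12 in LPDS and 905 ± 65.1 in SG12 in FBS, against 358 ± 31.9 in SGCTRL in FBS, a much smaller contrast than that of L3MBTL2.

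Genes that work with the 3 proteins could be read in part, through rows of the genes opposite to them. Of 27 SNARE and fusion genes 8 had such rows, 9 in all. In SG12 against SGCTRL in FBS 3 rows rose and none fell, where 25.2% of all tested entries passed, with a median of 0.39 against -0.03 over all tested entries. STX17, the autophagosome SNARE, rose by 0.80 (log2, edgeR adjusted p = 8.49e-05) and SNAP29, its partner, by 0.41 as read from the PI4KA row (adjusted p = 0.0179), a call lost with the split term (0.28). A further row that holds SNAP29 reads, ENSG00000272600, differed by 0.28 in FBS and -0.44 in LPDS (edgeR adjusted p = 0.338 and 0.168). VPS45, which binds syntaxins, rose by 1.14 (edgeR adjusted p = 0.0121). That call was kept in 13 of 15 alternative fits, and the fit without SG12 FBS replicate 2 (1.05) was among those that lost it. In LPDS, where 10.9% of all tested entries passed, 0 of the 9 rows passed by edgeR and 1 by DESeq2, with 2 at an unadjusted p under 0.05. In SG21 1 row fell in each medium, where 10.7% (LPDS) and 14.1% (FBS) of all tested entries passed. This was STX17, by 0.47 in LPDS and 0.51 in FBS on the log2 scale (edgeR adjusted p = 0.0421 and 0.0197), and the calls were not firm. The call in LPDS was lost without any 1 of the SGCTRL libraries or SG21 replicate 1 or 3, and that in FBS without SGCTRL replicate 1 or 2 or SG21 replicate 2 or 3.

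Of 14 exocyst and Ral genes 2 had rows, 3 in all. EXOC7 was read by 2 rows that went apart. One was higher in SG12 in FBS (0.89) and in SG21 in LPDS and FBS (0.81 and 0.86, edgeR adjusted p between 5.66e-05 and 0.00053). Its 2 calls in FBS were each kept in 14 of 15 alternative fits, and its call in LPDS in 15 of 15. The other, named ZACN, was -0.36 in SG12 in LPDS and -0.29 in SG21 in FBS (edgeR adjusted p = 0.00654 and 0.0262). Both ZACN calls were lost without SGCTRL replicate 1 or 2 of that medium, and the second also without SG21 FBS replicate 1 or 2. EXOC8 was 0.38 in SG21 in FBS (edgeR adjusted p = 0.029), lost without SGCTRL FBS replicate 1 (0.31) or 2, or without SG21 FBS replicate 2 (0.22). The median of the 3 rows ran from -0.00 to 0.38 in the 4 comparisons, so this group had no common direction.

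Of 30 genes that TNF and NF-kB induce, 1 could be read: IKBKE, an NF-kB pathway kinase, was 0.85 in SG21 against SGCTRL in LPDS (edgeR adjusted p = 0.0286), lost without SGCTRL replicate 1 (0.73) or 3 or SG21 replicate 2 (0.71), and was 0.37 in FBS, with 0.75 in SG12 in LPDS and -0.09 in FBS. Of 23 PRC1.6 and MBT genes, 3 had rows. CBX3, the heterochromatin protein HP1 gamma, fell by 0.64 on the log2 scale in SG12 in FBS as read from the HNRNPA2B1 row (edgeR adjusted p = 0.000297). Of MAX, MGA and CBX3, 0 of 3 passed by edgeR in each of the other 3 comparisons with SGCTRL, 0 by DESeq2 and 0 at an unadjusted p under 0.05. Of all tested entries, 25.2% passed in SG12 in FBS, 10.9% in SG12 in LPDS, 10.7% in SG21 in LPDS and 14.1% in SG21 in FBS. Against parental cells in FBS the CBX3 value was -0.52 in SG12 and 0.36 in SG21 (edgeR adjusted p = 0.00274 and 0.0367), with overlapping libraries in both, and the SG21 call was lost without parental FBS replicate 2 (0.15) or SG21 FBS replicate 1 or 3. The medians of the PRC1.6 rows were 0.12 and -0.09 in SG12 and 0.23 and 0.10 in SG21 (LPDS first).

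Among the 12822 tested entries, 66 differed by more than 16-fold in at least 1 of the 4 comparisons with SGCTRL, and 23 of those averaged 2 or more in log2 CPM. Of these 23, 6 were protein coding. L3MBTL2, at 4.13, was the nearest to the threshold of 4, and YKT6 and TNFAIP2, at -6.51 and -7.15, lay farthest from it. Just outside were ZNF212 at 3.75, TRIM72 at 3.61 and LPIN2 at -3.61.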

How the data were processed

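Per the labels' protocols, RNA was isolated with a Qiagen kit and 100 ng entered a stranded total RNA library kit with ribosomal depletion. Per the submitters' processing notes, bcl2fastq, STAR and hg38 were used. The authors deposited 1 table of raw read counts per gene name and library. The program that counted the reads, the strand it counted and the gene models it used are not given in the sources used here.

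GENCODE release 29 matched 56710 of 61578 entries. A row was taken to hold reads of the gene on the opposite strand where their exons shared at least 50 bases and at least 80% of such overlap, which held for 10137 entries. CPM was computed from the deposited counts and the reads counted to genes, and reads on no gene were left out. edgeR 4.0.16 (R 4.3.3) fitted all 24 libraries with 1 mean per group, TMM scaling, filterByExpr, the quasi-likelihood F test and Benjamini-Hochberg adjustment over 12822 entries, with calls at 0.05. DESeq2 1.42.0 was an alternative. The scripts were tested on counts simulated for SGCTRL against parental cells in FBS. Of 100 entries changed 2-fold 40 were called, and of 100 changed 4-fold 76 were, with 5 false calls. An entry that did not pass may thus still differ. Counting intervals are exact, hold 95% for summed reads, and cover neither the spread between libraries nor the choice of the rows. Libraries said to overlap or to lie apart are a description, given without the share of all entries that do so.

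The 3 genes and all gene lists were chosen with earlier results of these data known, and every comparison with SG12, SG21 or SGCTRL is treated as used in the choice. The tests planned for the 3 rows in SGCTRL are therefore not given. Named besides them are genes on the opposite strand, the nearest tested coding neighbours, the 3 entries with the most similar group means, and up to 2 passing entries per list. Lists read by their own names instead of by source gene had 10, 4, 8 and 9 rows (NF-kB, exocyst, SNARE, PRC1.6). In SG12 against SGCTRL in FBS, where 25.2% of all tested entries passed, 1, 1, 3 and 0 of them passed by edgeR. Of the PRC1.6 rows, 3 had an unadjusted p under 0.05 and 0 passed by DESeq2. The labels' replicate numbers did not pair the libraries. An entry that the rule for similar patterns picked for TNFAIP2 is not reported here.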

Additional observations from a re-analysis of the deposited data

Results flagged for a closer look

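The L3MBTL2 row moved in opposite directions with the medium. The log2 difference of LPDS against FBS was -4.34 in SG12, with all 3 LPDS libraries below all FBS libraries, but 1.20 in SG21 and 0.75 in parental cells, with all 3 LPDS libraries above all FBS libraries in both. The parental value did not pass (edgeR adjusted p = 0.0622), and in SGCTRL the difference was 0.31, with overlapping libraries. SG12 is the line in which L3MBTL2 was picked, so the difference between the lines was not tested.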

How the results depend on the processing

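Directions of the 3 rows in the knockout comparisons of over 16-fold held under every alternative run. With a term for the library split, the TNFAIP2 difference of SGCTRL against parental cells reversed to -0.54 in LPDS and -0.67 in FBS, and its log2 fold changes against SGCTRL shrank to -3.64 for SG12 and -1.28 for SG21 in FBS. By its construction that term rests on the 3 SG21 libraries in LPDS. The ZACN row turned to -0.09 (SGCTRL against parental cells in FBS) and 0.05 (SG21 against SGCTRL in FBS) with it.

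The call of YKT6 in LPDS against FBS in parental cells was lost when only the compared groups set the spread (0.67). It was also lost with a covariate (0.50), the share of counted reads in coding rows with no gene annotated opposite. The causes were not tested.

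Counts of entries called also moved. LPDS against FBS gave 71 (covariate) and 223 (own spread) in parental cells and 654 (own spread) in SGCTRL. SGCTRL against parental cells gave 190 (no count filter), 0 (split term), 68 (covariate), 314 (own spread) and 225 (DESeq2) in LPDS, and 152 (split term) and 144 (covariate) in FBS. The difference between the lines in their response gave 0 with DESeq2 size factors, with all aligned reads as library size, with the covariate and with the own spread, 85 without a count filter and 38 by DESeq2.

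Leaving out 1 library at a time gave 159 to 878 entries for LPDS against FBS in parental cells, 121 to 180 in SGCTRL, 25 to 94 and 1058 to 2442 for SGCTRL against parental cells in LPDS and FBS, and 0 to 24 for the difference in response. The values were 0.49 to 0.91 for L3MBTL2 and 0.52 to 0.79 for YKT6 in LPDS against FBS in parental cells, and 1.82 to 2.00 for TNFAIP2 in SGCTRL against parental cells in LPDS. L3MBTL2 passed in parental cells without parental LPDS replicate 2 (0.91).

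The replicate number as a block changed no call of the 3 rows (YKT6 0.64 in LPDS against FBS in parental cells) and gave 11 entries for the difference in response. In no comparison were all 3 correlations of same-numbered libraries above 0.1, and in 3 comparisons all were above 0 (0.015 to 0.237). Reads per row limit the values of TNFAIP2 in both knockout lines and of YKT6 in SG12, which rest on 0 to 19 reads a library.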
